A study of Homo sapiens with 2 samples.

Results

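The genes described here are human nuclear genes with the symbols of mitochondrial ribosomal proteins. They are every row of the expression tables whose symbol is MRPL or MRPS plus a number and sometimes a letter from A to C. The choice rests on the symbol alone, and a place in the ribosome was not checked gene by gene. The rule found 78 genes of the 13219 listed in either table, 49 of them MRPL genes, named for the large subunit, and 29 MRPS genes, named for the small subunit. Each of the 78 was listed in both libraries and averaged 1 FPKM or more, the filter for low genes, as did 10548 genes in total.

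Mitochondria carry their own ribosome, which translates the few mRNAs made from mitochondrial DNA, among them core subunits of the respiratory chain. Its rRNAs are made inside the organelle, but its proteins are encoded in the nucleus, translated in the cytosol and imported, so the MRP genes are part of the nuclear supply for mitochondrial translation. The large subunit forms peptide bonds and releases the growing protein through an exit tunnel that faces the inner membrane, and the small subunit binds and decodes the mRNA. Many of the proteins have counterparts in the bacterial ribosome, and others are particular to mitochondria.

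RNA sequencing compared 1 library of cells transfected against YBX1, labelled siYBX1, with 1 library of cells labelled siNC. Both came from the breast line called 231 in the labels, grown in L15 medium with serum, and for the knockdown the design text gives 48 h after transfection with a Smart Silencer, which the treatment protocol calls an siRNA. The labels state no silencer sequence and no separate cultures. With 1 library per group there was no replicate check and no test across samples, so every difference below describes this pair of libraries. Values are FPKM, which correct fragment numbers for library size and for the length of the transcript, so levels can be compared between genes, and a difference is log2(FPKM + 1) in the siYBX1 library minus that in the siNC library. A gene is called higher or lower from a difference of 1, which is 2-fold on this scale, and the scale understates the difference of low genes. Fewer cells of a kind and less RNA per cell cannot be told apart in such bulk samples.

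YBX1, the targeted gene, had 38.1 FPKM in siYBX1 cells, against 649 FPKM in siNC cells (difference -4.05). Line markers such as VIM (250 against 201 FPKM) and AXL (306 against 218 FPKM) were high in both. Of 9 luminal markers, ESR1, PGR and TFF1 were not listed in either table and FOXA1 was listed for siNC alone. The 5 that could be compared all had a negative difference, with a median of -0.60: KRT8 stood at 27.7 against 74.7 FPKM (-1.40), KRT19 at 83.0 against 153 FPKM (-0.87), EPCAM at 5.10 against 8.22 FPKM (-0.60), KRT18 at 57.2 against 64.2 FPKM (-0.16) and GATA3 at 2.14 against 2.34 FPKM (-0.09). Of 15 hepatocyte markers, 1 was listed for siYBX1, SERPINA1, and 14 for siNC, with summed levels of 40.0 and 74.5 FPKM. ALB, at 10.4 FPKM in the siNC library, was not listed in the siYBX1 library. The part of the luminal and hepatocyte transcripts in the MRP values was not tested.

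The MRP genes differed little as a family. In the siYBX1 library they ran between 2.67 and 117 FPKM with a median of 15.997 FPKM, and in the siNC library between 3.23 and 78.6 FPKM with a median of 15.3 FPKM. The median member stood at percentile 78.1 of the genes listed in the siYBX1 library and at percentile 79.5 in the siNC library. Of the 78 genes, 2 were at least 2-fold higher in the siYBX1 library, where 7.20% of all compared genes were, and 2 were at least 2-fold lower, where 5.62% of all compared genes were. After scaling the libraries to equal total FPKM, 2 members were higher and 4 lower, beside 5.51% and 7.86% of all genes. The median difference of the members was 0.03, that of all compared genes was 0.02, and the median size of a difference, sign aside, was 0.41 in both sets. Across the 78 members the log2 levels of both libraries correlated, with a Spearman's rho of 0.840 and a Pearson's r of 0.851. Genes of 1 pair of libraries are not independent replicates, so these are descriptions.

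**Figure D1:**
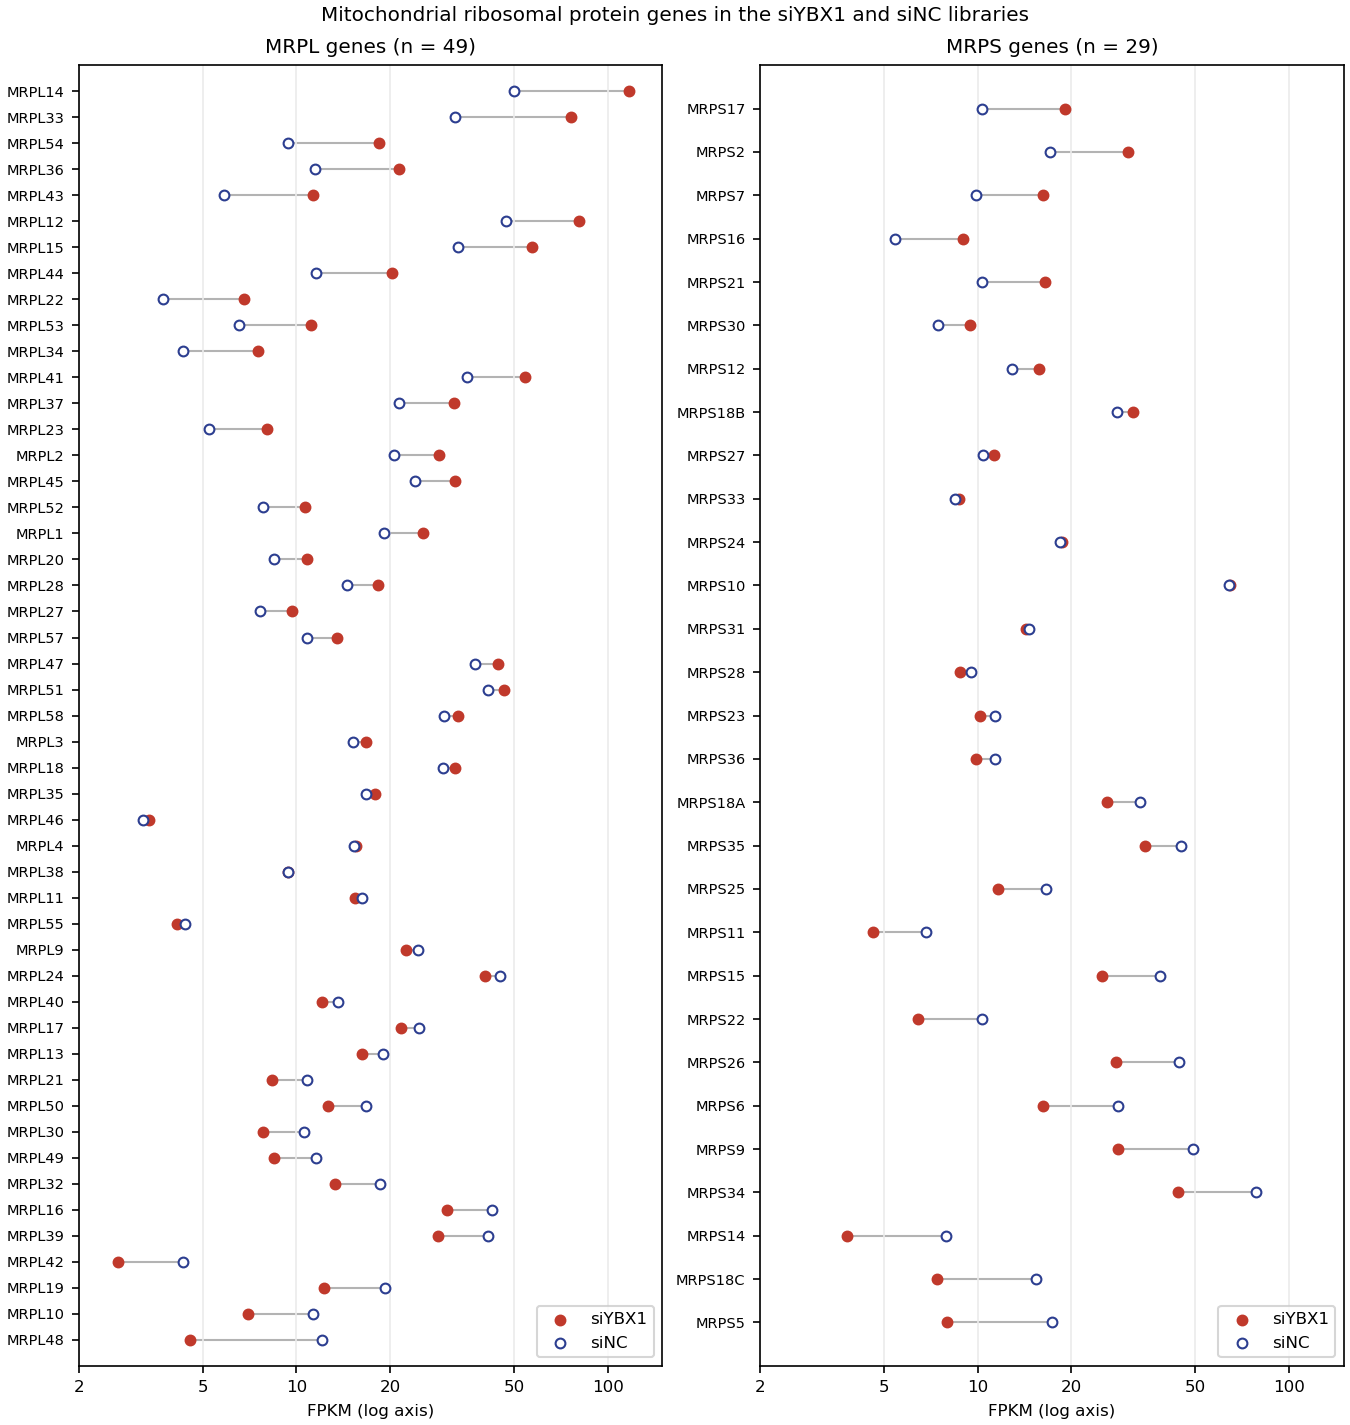
FPKM (log axis) of each of the 49 MRPL genes (left) and 29 MRPS genes (right), 1 row per gene, with filled points for the siYBX1 library, open points for the siNC library and a line joining them; rows run from the largest positive difference at the top to the largest negative one at the bottom. MRPL14 at 117 against 50.2 FPKM and MRPL33 at 76.1 against 32.4 FPKM head the left panel, and in the right panel the filled point lies left of the open one for 17 of 29 genes.

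Both members past 2-fold upward belonged to the large subunit. MRPL14 (ENSG00000180992.6_2), which lies at the face that joins the small subunit and is the docking site of the assembly factor MALSU1, had 117 FPKM in siYBX1 cells, against 50.2 FPKM in siNC cells. It ranked 1 among the members in siYBX1 cells and 3 in siNC cells, with a difference of 1.21. MRPL14 overlaps TMEM63B on the opposite strand, itself at 9.15 against 19.3 FPKM (-0.998), and how strand was handled is not known. Its single value is therefore uncertain. MRPL33 (ENSG00000243147.7_3), a small protein with a bacterial counterpart, stood at 76.1 against 32.4 FPKM (1.21), which placed it at rank 3 of the 78 members in the siYBX1 library and at rank 17 in the siNC library. MRPL33 overlaps BABAM2 on the same strand, itself at 7.97 against 3.96 FPKM, so its single value is uncertain.

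Other large subunit genes came close to the threshold without passing it. MRPL54, a protein particular to mitochondria, stood at 18.5 against 9.43 FPKM (0.90). MRPL36, again with a bacterial counterpart, was listed at 21.4 against 11.5 FPKM (0.84). MRPL43, particular to mitochondria, was at 11.3 against 5.85 FPKM (0.84). All of these had a higher FPKM in the siYBX1 library. Among the abundant genes, MRPL12, the stalk protein that helps recruit translation factors and in human cells also binds the mitochondrial RNA polymerase, stood at 81.1 against 47.1 FPKM (0.77). MRPL15, of the subunit's core, was at 57.1 against 33.1 FPKM (0.77). The 4 MRPL genes with the highest mean level were MRPL14, MRPL12, MRPL33 and MRPL15, each of them at a higher FPKM in the siYBX1 library.

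At the other end of the large subunit, MRPL48, of the central protuberance that faces the head of the small subunit, had the most negative difference of any member. It had 4.55 FPKM in siYBX1 cells, against 12.1 FPKM in siNC cells (-1.24), and ranked 74 of the 78 members in siYBX1 cells and 45 in siNC cells. The next were MRPL10, which anchors the stalk, at 7.02 against 11.3 FPKM (-0.62), and MRPL19, at 12.2 against 19.3 FPKM (-0.62). MRPL42 (2.67 against 4.32 FPKM, -0.54), the lowest member in the siYBX1 library, lay within 2-fold. So did MRPL39, related to threonyl-tRNA synthetase, at 28.6 against 41.1 FPKM (-0.51), and MRPL16 at 30.5 against 42.6 FPKM (-0.47). MRPL46, beside MRPL48 in the protuberance and the lowest member in the siNC library, was nearly level, at 3.37 against 3.23 FPKM (0.05).

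Of the 29 small subunit genes, none passed 2-fold upward (0 of 29), beside 7.20% of all compared genes. Downward 1 passed it (3.45%), beside 5.62% of all compared genes. This was MRPS5, near the channel through which mRNA enters, at 8.003 FPKM in siYBX1 cells, against 17.4 FPKM in siNC cells (-1.03). MRPS5 shares its strand with the overlapping gene ZNF514 (3.02 against 3.26 FPKM), and its single value is therefore uncertain. MRPS18C, 1 of the 3 MRPS18 paralogs, followed at 7.43 against 15.4 FPKM (-0.96), and MRPS14, of the head, at 3.80 against 7.90 FPKM (-0.89). Both were more than 2-fold lower as a plain ratio of FPKM, by 2.07 and 2.08 times, and fell short of the threshold through the pseudocount. On the opposite strand MRPS14 overlaps CACYBP, itself at 30.6 against 62.8 FPKM (-1.01). MRPS18C overlaps ABRAXAS1 on the opposite strand (2.92 against 3.38 FPKM) and has 2 named pseudogenes. How strand was handled is not known, so the values of MRPS14 and MRPS18C are uncertain too.

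Several of the most abundant small subunit genes also stood lower. MRPS34, particular to mitochondria, was the highest member of the whole family in the siNC library, at 78.6 FPKM, and stood at 44.0 FPKM in the siYBX1 library (-0.82), where it ranked 9. MRPS9, of the head, was at 28.3 FPKM in siYBX1 cells, against 49.3 FPKM in siNC cells (-0.78). MRPS6, of the platform, was at 16.2 against 28.2 FPKM (-0.76), and overlaps SLC5A3 on the same strand. MRPS10, the second highest in siNC, held its level at 64.6 against 64.2 FPKM (0.01), and MRPS35 lay at 34.5 against 45.0 FPKM (-0.37). The abundant members thus did not all differ in the same direction.

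Higher FPKM in the siYBX1 library was seen for 12 small subunit genes. MRPS17 stood at 19.1 against 10.4 FPKM (0.82), but overlaps NIPSNAP2 on the same strand. MRPS2, in which mutations cause mitochondrial disease, was at 30.3 against 17.0 FPKM (0.79). MRPS7, a protein of the head, was at 16.2 against 9.91 FPKM (0.66). MRPS16, whose loss causes a mitochondrial translation disease, was at 8.94 against 5.45 FPKM (0.63), and MRPS21 at 16.4 against 10.4 FPKM (0.62). MRPS16 overlaps DNAJC9 on the same strand, and MRPS21 has 8 named pseudogenes that could have taken some of its reads. MRPS30 stood at 9.43 against 7.45 FPKM (0.30). In the known human structure this protein, like that of MRPS18A (26.0 against 33.1 FPKM, -0.34), sits in the large subunit despite its name.

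The subunits lay on either side of 0 in the values as deposited. The median difference was 0.14 over the MRPL genes and -0.15 over the MRPS genes, 0.29 apart, where the middle of all compared genes ran from -0.39 to 0.43 between quartiles. After scaling to equal total FPKM, which shifted the median of all genes to -0.11, the medians were -0.00058 and -0.28, so the MRPL side of 0 was not kept while the gap of 0.28 was. Of the MRPL genes 30 of 49 (61.2%) were above 0, and of the MRPS genes 12 of 29 (41.4%), beside 51.0% of all compared genes. At a smaller threshold of 1.5-fold, chosen after the values were seen, 12 of 49 MRPL genes (24.5%) and 5 of 29 MRPS genes (17.2%) were higher, beside 18.3% of all compared genes. At the same threshold 3 MRPL genes (6.12%) and 9 MRPS genes (31.0%) were lower, beside 16.2% of all compared genes. Among MRPL genes the higher share lay above the background and the lower share below it, but with the trend on transcript length and GC content removed the higher share was 10.2%, below the 17.2% of all genes. Among MRPS genes the lower share lay above the background and the higher share near it. No test of this contrast was possible with 1 library per group, and genes are not replicates.

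Counting MRPS30 and MRPS18A with the large subunit left both medians as they were, at 0.14 and -0.15. Without MRPS36, whose place in the ribosome was not checked, the MRPS median was -0.13 and the gap 0.27. The summed level of the 49 MRPL genes was 1161 FPKM in siYBX1 cells, against 936 FPKM in siNC cells, and that of the 29 MRPS genes was 538 against 641 FPKM. The large subunit sum was thus 2.16 times the small one in siYBX1 cells and 1.46 times in siNC cells. A few abundant genes carried much of this: without MRPL14, MRPL33 and MRPL12 the ratios were 1.65 and 1.26. A sum of FPKM weighs transcripts and says nothing of protein or of assembled ribosomes.

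**Figure D2:**
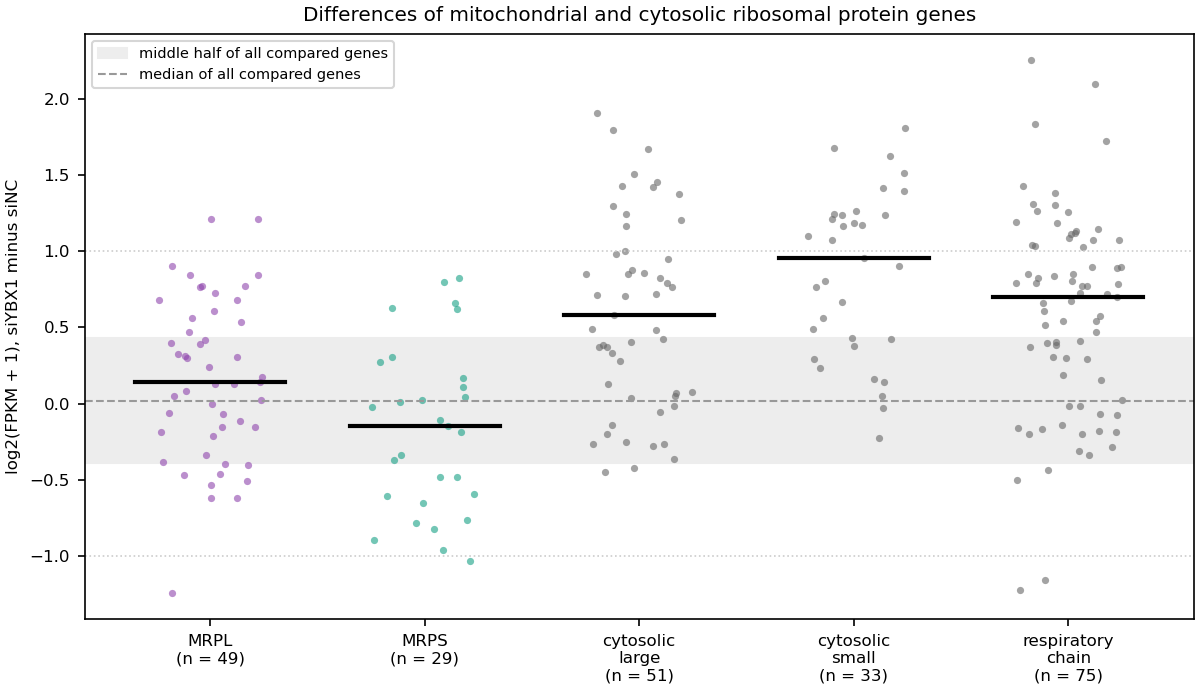
Difference in log2(FPKM + 1), siYBX1 minus siNC, of each MRPL, MRPS, cytosolic large subunit, cytosolic small subunit and respiratory chain gene (points, 1 per gene; black bars are medians; dotted lines mark 2-fold; the dashed line is the median of all compared genes and the grey band runs between the quartiles of all compared genes). The MRPL median of 0.14 and the MRPS median of -0.15 lie inside the band, and the cytosolic medians of 0.58 and 0.96 and the respiratory median of 0.70 lie above it.

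Within the subunits, structural regions held members of either sign. Of the 3 stalk genes, MRPL12 was above 0 (0.77), while MRPL11 (15.5 against 16.2 FPKM, -0.06) and MRPL10 (-0.62) were below. The 7 genes of the central protuberance had a median of 0.05, with MRPL48 as the 1 gene past 2-fold (14.3% lower, beside 5.62% of all compared genes). MRPL52, in the same region, stood at 10.6 against 7.84 FPKM (0.40). The 8 genes at the rim of the exit tunnel had a median of 0.33 and none past 2-fold. Of all compared genes 7.20% were past it upward and 5.62% downward. MRPL44, which carries an RNase III-like fold, was at 20.4 against 11.6 FPKM (0.76), and MRPL22 at 6.79 against 3.72 FPKM (0.72). MRPL45, which anchors the ribosome at the inner membrane, was at 32.4 against 24.04 FPKM (0.42). The 8 genes of the small subunit head had a median of -0.01, between MRPS14 (-0.89) and MRPS7 (0.66).

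The numbering of the genes did not sort the differences. MRPL genes numbered 1 to 36, which follow bacterial numbering, had a median of 0.13 over 28 genes, and those numbered 37 and above, mostly particular to mitochondria, had a median of 0.17 over 21. MRPS genes numbered 2 to 21 had a median of -0.16 over 16 genes, and those numbered 22 and above a median of -0.15 over 13. The spread differed more than the centre. The standard deviation of the differences was 0.69 over the MRPS genes numbered 2 to 21, and also 0.69 over all compared genes. Of the MRPS genes numbered 2 to 21, 5 were 1.5-fold higher or more and 6 were 1.5-fold lower or more. Over the MRPS genes numbered 22 and above the standard deviation was 0.34, with 0 higher and 3 lower (23.1%). For numbers 2 to 21 the shares were 31.25% higher and 37.5% lower, beside 18.3% and 16.2% of all compared genes. The differences of MRPS18A, MRPS18B and MRPS18C, paralogs of 1 bacterial protein, were -0.34, 0.17 and -0.96.

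Transcript length moved with the differences. When all compared genes were cut into 10 equal bins of transcript length, the shortest bin had a median of 0.22 and the longest one of -0.23. MRP transcripts are short, with a median of 1387 bases for MRPL genes and 1640 bases for MRPS genes against 3407 bases over all compared genes. Within the family, Spearman's rho between length and difference was -0.38 over the 49 MRPL genes and 0.17 over the 29 MRPS genes. With the trend on length and GC content removed, the MRPL median was 0.03 and the MRPS median -0.32, so the gap between the subunits was 0.35. MRPL14 and MRPL33 then stood at 0.89 and 0.83, under the threshold, and 0 members were at least 2-fold higher, where 6.21% of all genes were. Then 4 members were at least 2-fold lower, where 5.59% of all genes were: MRPL48 (-1.31), MRPS5 (-1.22), MRPS34 (-1.11) and MRPS6 (-1.03). At 1.5-fold, 10 of 29 MRPS genes (34.5%) and 6 of 49 MRPL genes (12.2%) were lower without the trend, beside 16.1% of all genes. At the same threshold 2 MRPS genes (6.90%) and 5 MRPL genes (10.2%) were higher, beside 17.2% of all genes, so both subunits lay below that background. Each length is that of a gene's longest annotated coding transcript, expressed or not, which for MRPL42 has 15582 bases.

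**Figure D3:**
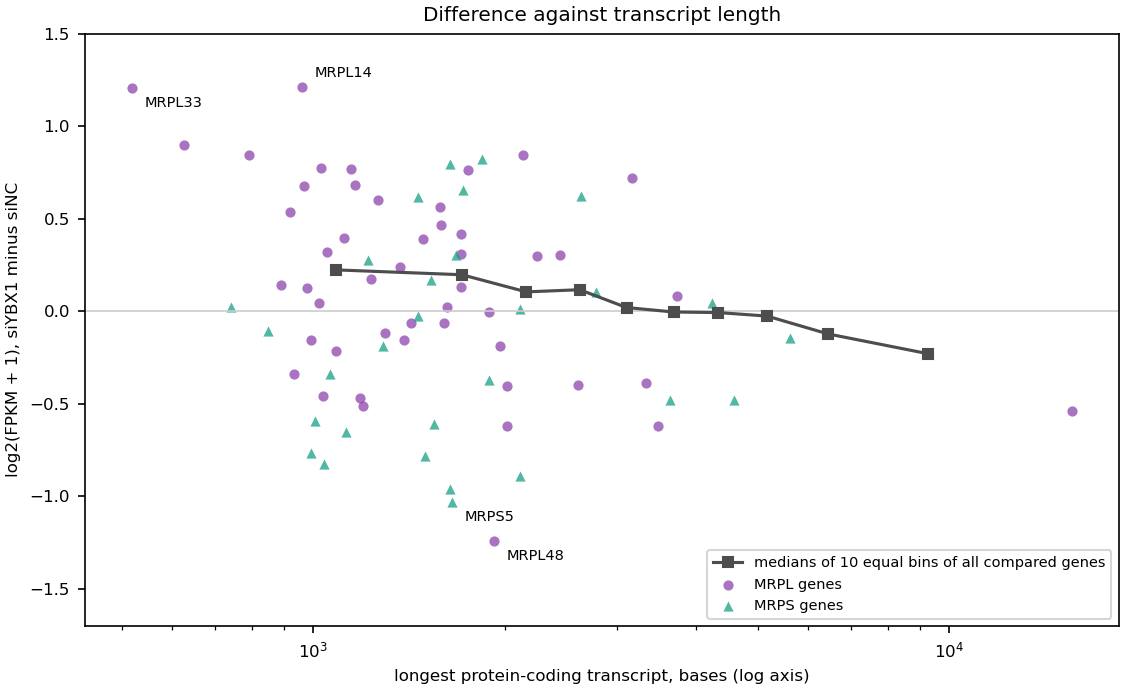
Difference in log2(FPKM + 1), siYBX1 minus siNC, against the length of the longest protein-coding transcript in bases (log axis) for the MRPL genes (circles) and MRPS genes (triangles), with the medians of 10 equal bins of all compared genes (squares). The bin medians run from 0.22 at the short end to -0.23 at the long end; MRPL33 and MRPL14 are short transcripts above the line, and MRPS5 and MRPL48 lie more than 1 below it.

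The MRP genes were set beside the cytosolic ribosome and the respiratory chain, the gene groups nearest to them in function. Among 84 cytosolic ribosomal protein genes, with a median difference of 0.74, 28 passed 2-fold upward (33.3%) and 0 downward. Among 75 nuclear genes for respiratory chain subunits, with a median of 0.70, 22 passed 2-fold upward (29.3%) and 2 downward (2.67%). Over all compared genes the shares were 7.20% upward and 5.62% downward. With the length and GC trend removed these medians were 0.52 and 0.54, against -0.07 for the MRP genes. The order of the subunits was the other way round in the cytosolic ribosome, with a median of 0.58 over 51 large subunit genes and 0.96 over 33 small subunit genes. These contrasts rest on the same pair of libraries and were not tested.

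Mitoribosomal proteins whose symbols the rule does not take went both ways. CHCHD1, of the small subunit, stood at 37.4 against 15.7 FPKM (1.20), and GADD45GIP1, of the large subunit and also known as CRIF1, at 41.4 against 114 FPKM (-1.44). AURKAIP1 was at 25.7 against 36.2 FPKM (-0.48). DAP3, the GTP-binding protein of the head, was nearly level at 20.6 against 18.8 FPKM (0.12), as was PTCD3, at the mRNA entrance, at 14.5 against 14.2 FPKM (0.03).

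Among 28 compared factors that assemble the mitoribosome or modify its rRNA, the median was 0.22 and 18 (64.3%) were above 0, beside 51.0% of all compared genes. Past 2-fold were 2 upward (7.14%), a share near the 7.20% of all compared genes, and 0 downward, beside 5.62%. The higher ones were the rRNA methyltransferase MRM1 (5.38 against 1.499 FPKM, 1.35) and METTL17, an assembly factor of the small subunit (6.25 against 2.60 FPKM, 1.01). RMND1 (5.42 against 2.49 FPKM, 0.88), which tethers the ribosome in human cells, and the helicase DDX28 (4.48 against 1.999 FPKM, 0.87) came near. MALSU1, the partner of MRPL14, stood at 6.28 against 4.89 FPKM (0.30). The protease subunits AFG3L2 and SPG7, which cut the precursor of MRPL32, were at 21.1 against 25.6 FPKM (-0.26) and 3.55 against 4.73 FPKM (-0.33). MRPL32 itself was at 13.3 against 18.6 FPKM (-0.46).

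Among 16 translation factors the median was -0.17, and 12 (75%) were below 0, beside 49.0% of all compared genes. Past 2-fold were 0 upward and 1 downward (6.25%), a share near the 5.62% of all compared genes. The lower one was MTIF3, an initiation factor that acts on the small subunit, at 10.5 against 24.1 FPKM (-1.13). The release factors C12orf65 (4.97 against 9.58 FPKM, -0.83), MTRF1L (7.04 against 10.96 FPKM, -0.57) and MTRF1 (1.43 against 2.53 FPKM, -0.54) were within 2-fold. Of 17 mitochondrial tRNA synthetases, 1 (5.88%) was higher, where 7.20% of all compared genes were, and 0 were lower. Their median was 0.06, and the higher one was YARS2 at 10.6 against 4.47 FPKM (1.08). MARS2 stood at 11.7 against 6.005 FPKM (0.85) and RARS2 at 5.48 against 8.98 FPKM (-0.62). Of 13 genes of mitochondrial transcription and DNA upkeep, 0 were past 2-fold in either direction, with a median of 0.02. The largest differences there were those of MTERF1 (3.02 against 1.34 FPKM, 0.78), TOP1MT (2.67 against 4.56 FPKM, -0.60), TEFM (3.47 against 5.25 FPKM, -0.48) and SSBP1 (33.1 against 25.8 FPKM, 0.35).

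**Figure D4:**
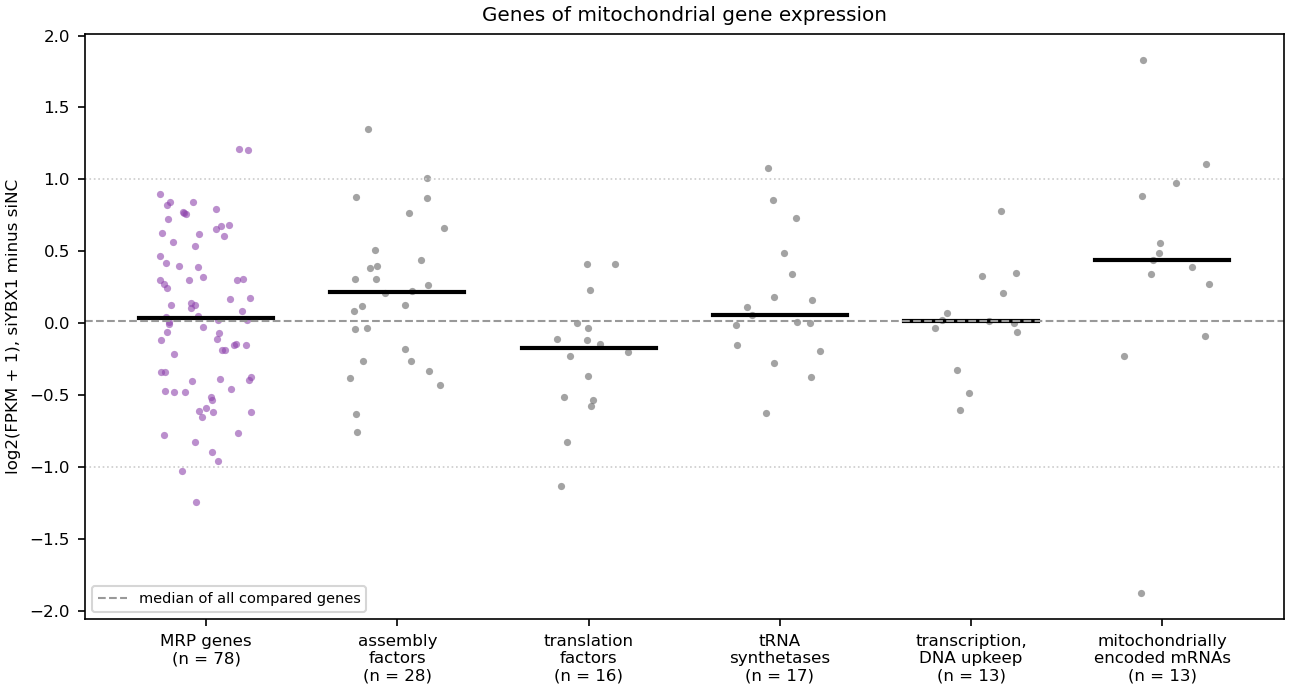
Difference in log2(FPKM + 1), siYBX1 minus siNC, of the 78 MRP genes and of 5 other groups of mitochondrial gene expression (points, 1 per gene; black bars are medians; the dashed line is the median of all compared genes, 0.02; dotted lines mark 2-fold). The MRP median of 0.03 lies between those of the translation factors (-0.17) and the assembly factors (0.22), and the mitochondrially encoded mRNAs have the highest median, 0.44.

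The mRNAs that these ribosomes translate had a median of 0.44 over 13 genes. Of these, 2 were at least 2-fold higher (15.4%) and 1 lower (7.69%), beside 7.20% and 5.62% of all compared genes. MT-ND3 stood at 2400.4 against 676 FPKM (1.83) and MT-CYB at 2179 against 1108 FPKM (0.98). MT-ATP8 (6228 against 2898 FPKM, 1.10) and MT-ATP6 (1340 against 4913 FPKM, -1.87) overlap each other, so their single values are uncertain. The mitochondrial rRNAs were listed in neither library. Of the regulators that act on nuclear genes for mitochondria, 2 of 8 compared (25%) were higher, beside 7.20% of all compared genes. None was lower (0 of 8), beside 5.62%. The higher ones were MYC at 28.4 against 3.92 FPKM (2.58) and ESRRA at 13.1 against 4.47 FPKM (1.36). GABPB2 (1.26 against 2.19 FPKM, -0.50) and NRF1 (5.82 against 4.41 FPKM, 0.33) lay within 2-fold, as did GABPA, at 6.16 against 6.54 FPKM (-0.07).

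Promoters were available from RefSeq on GRCh38.p14 for 69 of the 78 genes, 42 MRPL and 27 MRPS, and their 250 bases before the start were searched on both strands for 4 motifs. The ETS core CCGGAAG, which factors such as GABPA bind, was in 23 of 69 member promoters (33.3%), beside 15.9% of the promoters of listed genes and 8.82% of all promoters. The share was 33.3% for MRPL and for MRPS genes alike. The YY1 motif AAGATGGC was in 5 (7.25%), beside 1.81% and 1.37%. The NRF1 motif, a palindrome and so the same on both strands, was in 1 (1.45%), beside 1.94% and 1.13%. CCAAT, which read on the other strand is the Y-box that gave YB-1 its name, was in 19 (27.5%), beside 35.2% and 33.0%. In the promoters of members 0 pairs of matches overlapped.

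The differences did not sort by the ETS core: the median was 0.01 over the 23 genes with it and 0.05 over the 46 without. For CCAAT the medians were 0.24 over 19 genes with it and 0.0035 over 50 without. A match describes letters in a window and is not a bound site.

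The 80 bases before the start are shown for genes of either sign whose stretch holds no annotated exon, with the motif letters in capitals: an ETS core for the first 3, CCAAT boxes for the next 2, and none of the 4 motifs for MRPS14, a gene near the bottom of the order. All are written 5′ to 3′ on the strand of the gene.
MRPL58, chr17:75012590-75012669, plus strand: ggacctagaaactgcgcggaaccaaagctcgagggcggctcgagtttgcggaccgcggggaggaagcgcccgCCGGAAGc
MRPS31, chr13:40771191-40771270, minus strand: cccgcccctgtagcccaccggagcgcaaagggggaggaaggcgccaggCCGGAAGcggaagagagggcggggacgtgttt
MRPS18A, chr6:43687792-43687871, minus strand: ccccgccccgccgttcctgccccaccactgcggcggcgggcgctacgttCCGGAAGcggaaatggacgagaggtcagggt
MRPL37, chr1:54200087-54200166, plus strand: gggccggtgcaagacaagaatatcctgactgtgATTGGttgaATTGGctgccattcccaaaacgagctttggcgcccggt
MRPL50, chr9:101398619-101398698, minus strand: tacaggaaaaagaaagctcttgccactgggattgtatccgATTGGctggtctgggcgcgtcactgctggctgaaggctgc
MRPS14, chr1:175023426-175023505, minus strand: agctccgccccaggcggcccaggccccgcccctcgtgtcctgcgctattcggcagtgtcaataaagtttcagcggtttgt

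Of the ETS genes shown, MRPL58, a peptidyl-tRNA hydrolase built into the large subunit that can free stalled ribosomes, had 33.1 against 29.9 FPKM (0.14). MRPS31 had 14.3 against 14.6 FPKM (-0.02) and MRPS18A had 26.0 against 33.1 FPKM (-0.34). Of the CCAAT genes, MRPL37 stood at 32.1 against 21.5 FPKM (0.56) and MRPL50 at 12.6 against 16.8 FPKM (-0.38). These genes were picked to show either sign, so they cannot tell whether a motif goes with the sign of the difference.

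Some MRP genes start head to head with a neighbour on the other strand. In GENCODE 29, 16 of the 78 members had a protein-coding neighbour starting within 1000 bases upstream or overlapping the start by up to 200 bases. In 8 of 15 such pairs listed in both tables the partners had the same sign. The same shares over all genes were not computed, so these counts have no background, and the pairs below are single descriptions. MRPS11 and MRPL46, 1 gene of each subunit, start 34 bases apart: MRPS11 was at 4.61 against 6.82 FPKM (-0.48) and MRPL46 at 3.37 against 3.23 FPKM (0.05). MRPL36 starts 34 bases from NDUFS6, a complex I subunit at 53.1 against 19.8 FPKM (1.38), and both stood higher in FPKM in the siYBX1 library. MRPL47 starts 36 bases from NDUFB5, also of complex I, at 5.78 against 2.97 FPKM (0.77), while MRPL47 itself was at 44.6 against 37.5 FPKM (0.24). MRPS34 and its neighbour EME2 (1.301 against 0.491 FPKM, 0.63) went opposite ways, as did MRPS18C and HELQ (2.28 against 1.72 FPKM, 0.27). MRPL30 and MITD1 (9.43 against 22.5 FPKM, -1.17) were both below 0, with MRPL30 at 7.80 against 10.6 FPKM (-0.40).

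The reads of some members may have been shared with other genes. By GENCODE 29, 12 members overlap another listed gene on the same strand, 23 overlap one on the opposite strand, and 34 have a pseudogene named after them, 75 pseudogenes in all. The sources used here do not say how strand and multiply placed reads were handled. Of the 4 members past 2-fold, MRPL33 and MRPS5 overlap a listed gene on the same strand, and MRPS5 and MRPL48 have named pseudogenes. MRPL14 has neither, but overlaps TMEM63B on the opposite strand (9.15 against 19.3 FPKM, -0.998).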

How the data were processed

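Each library has 1 table, deposited by the authors, that pairs gene identifiers and symbols with FPKM values, per the file headers. Without counts the sequencing depth is unknown, and counting error could not be given. Named in the submitters' processing notes are GRCh37, StringTie 1.3.3, HISAT2 2.1.0 and cutadapt 1.17, without roles. Neither the annotation nor the listing rule is given in the sources used here. There were 11678 genes listed for siYBX1 and 13017 for siNC.

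Rows were joined by gene identifier. Differences were taken on log2(FPKM + 1) for genes that both tables list and that average 1 FPKM or more. With 1 library per group no test was run; lists are described by counts and medians beside those of all compared genes. Named genes were those past 2-fold, the 6 largest differences each way, the 4 highest and the 2 lowest levels per subunit, and up to 4 genes per other list. 1 gene that this rule names is not reported here. Other genes named for structure, promoters or neighbours were chosen after their values were seen. The members and lists were chosen with earlier results of these data known.

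Transcript length, GC content and neighbours came from GENCODE 29 on GRCh38, not the authors' build; 99.3% of compared genes had a length. The trend was a least squares fit on splines with 5 degrees of freedom each, counting the intercept that they share. Of the alternatives, 12 were listed at the start and 5 were chosen after seeing the data. The difference and the removal of the trend were tested on simulated data, and the other steps were not. Python 3.11.15, pandas 2.3.3, NumPy 2.4.6 and scikit-learn 1.9.0 were used.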

Additional observations from a re-analysis of the deposited data

How the results depend on the processing

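No paired analysis was possible because each group held 1 library. The gap between the MRPL and MRPS medians, 0.29, stayed between 0.24 (pseudocount 5) and 0.35 (mean of at least 5 FPKM) in the alternatives run. The counts were less stable. Instead of 2, the number of members at least 2-fold lower was 4 at a pseudocount of 0.1, 0 at a pseudocount of 5, 4 at the same total FPKM, 4 after removing the trend on length and GC, and 6 after removing that on coding length and GC. The count over all compared genes moved as well, from 593 of 10548 to 925 at a pseudocount of 0.1 and 209 at a pseudocount of 5. It was 835 of 10620 at the same total FPKM, 586 without the length and GC trend and 530 without the coding length and GC trend. The number of lower members was 1 without members that overlap a listed gene on the same strand and 0 without members that have a named pseudogene. At 1.5-fold it was 12, beside 16.2% of all compared genes. Instead of 2, the number at least 2-fold higher was 0 with either trend removed, 1 without the overlapping members and 17 at 1.5-fold. Over all compared genes 759 were 2-fold higher as reported, 650 without the length trend and 586 without the coding length trend. At 1.5-fold 18.3% of them were higher. At the same total FPKM the medians were -0.10 for all members, -0.00058 for MRPL and -0.28 for MRPS genes, where the median of all genes shifted to -0.11. With the length and GC trend removed they were -0.073, 0.031 and -0.32, and with the coding length and GC trend removed -0.14, -0.060 and -0.31. Of 30 named genes, 2 passed 2-fold anew at a pseudocount of 0.1, 2 at the same total FPKM, and 2 no longer passed it at a pseudocount of 5. Leaving out overlapping or pseudogene-bearing members changes counts by construction; for the other shifts the cause was not tested. The unknown depth limits the low members most.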
